A study of Mus musculus with 6 samples.

Results

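The 10 genes described here encode secreted cytokines that mast cells are known for: the type 2 cytokines Il4, Il5, Il9 and Il13, the inflammatory cytokines Il6 and Tnf, the regulatory cytokine Il10, the growth factor Csf2, and Lif and Osm of the interleukin-6 family. They were taken by symbol, and all 10 were found among the 49568 genes of the count table. The libraries came from MC/9, a mouse mast cell line, collected for total RNA sequencing with an Illumina TruSeq kit. The protocol text, the same for both groups, has MC/9 added to a layer of 7F2 cells, a mouse osteoblast line. The rPTH group held 3 libraries of MC/9 treated in co-culture with rPTH at a final 10 nM for 24 h, and the control group held 3 libraries of the same line labelled as untreated. The labels spell out neither rPTH nor whether the control mast cells had shared the dish with 7F2. They do not say that the replicates were separate cultures either, so the p-values below measure the spread between these libraries, which may be technical. The rPTH group models 1 mast cell line beside 1 osteoblast line. The control group models the same mast cell line, with or without 7F2, and stromal transcripts were present in its libraries too.

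A mast cell stores histamine and proteases in granules and makes its cytokines after activation, mostly by new transcription. Engagement of the IgE receptor raises calcium and activates NFAT, NF-kappaB and AP-1, which act at cytokine promoters already opened by GATA factors. Most cytokine transcripts are short-lived, because AU-rich elements in their 3′ untranslated regions recruit decay factors such as tristetraprolin. Il4 and Il13 signal through chains shared with other cytokines, Csf2, Il5 and the related Il3 share the beta chain Csf2rb, and Il6, Lif and Osm share Il6st, also called gp130. Osteoblasts and other stromal cells are known to express Osmr, Lifr and Il6st.

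The 3′ untranslated regions of 9 of these genes were searched for ATTTA, the core of the AU-rich element, on the sense strand. The stretches of 30 bases that hold the most copies in 5 of them follow, since these elements are known to limit how long such transcripts last. The capitals mark ATTTA, and the letters come from GENCODE M21 transcripts of GRCm38.
Tnf: attATTTAttATTTATTTAttATTTATTTA
Csf2: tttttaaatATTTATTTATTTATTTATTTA
Lif: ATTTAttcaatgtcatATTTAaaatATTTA
Il6: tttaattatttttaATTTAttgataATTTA
Il13: atcttATTTAttatggttgtgtgttATTTA
Tnf and Csf2 each held 5 copies in 1 such window, overlapping copies included. Of 21028 mouse genes with a 3′ untranslated region, 0.271% reached 5 copies in a window and 18.8% reached 2. Il9 and Lif had 3 in a window, Il10 had 1, and Il5, Il6, Il13 and Osm had 2. Per kb of the region, Il9 held 34.9 copies, Csf2 28.4, Tnf 10.5 and Il6 5.995, while Lif, with the longest region, held 2.20. The median over those 21028 genes was 1.24 per kb.

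Il4, Il13, Il5 and Csf2 lie on chromosome 11, in the type 2 cytokine cluster that mast cells and T helper cells use. In GENCODE M21 (GRCm38), Il4 spans chr11:53602982-53618669 and Il13 spans chr11:53631324-53634702, both on the minus strand. Il5 spans chr11:53720794-53725106 on the plus strand, and Csf2 spans chr11:54247271-54249667 on the minus strand. Lif (chr11:4257557-4272514) and Osm (chr11:4236420-4241026) are neighbours elsewhere on chromosome 11, both on the plus strand. Il6 lies at chr5:30013114-30019981, Tnf at chr17:35199381-35202007, Il9 at chr13:56479277-56482246 and Il10 at chr1:131019845-131024974. Il5 and Csf2 overlap an annotated gene on the other strand, Gm12214 and Gm12223. Whether strand was used in counting is not stated, so reads of these pairs may not have been told apart.

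The promoters of 3 genes of that cluster are shown because Il4 and Il13 varied together across the libraries and Csf2 was the cytokine whose groups did not overlap. Each is RefSeq sequence of GRCm38.p6, minus strand, from 250 bases before to 50 after the annotated start: Il4 at chr11:53618616-53618915, Il13 at chr11:53634653-53634952 and Csf2 at chr11:54249850-54250149. The start that RefSeq gives Csf2 lies outside its GENCODE span.
Il4 promoter: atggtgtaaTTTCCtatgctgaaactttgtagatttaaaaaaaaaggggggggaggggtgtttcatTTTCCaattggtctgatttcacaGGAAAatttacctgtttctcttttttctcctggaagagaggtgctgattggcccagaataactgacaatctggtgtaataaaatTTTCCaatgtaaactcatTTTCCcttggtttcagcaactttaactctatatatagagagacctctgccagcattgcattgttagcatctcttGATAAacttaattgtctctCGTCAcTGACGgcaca
Il13 promoter: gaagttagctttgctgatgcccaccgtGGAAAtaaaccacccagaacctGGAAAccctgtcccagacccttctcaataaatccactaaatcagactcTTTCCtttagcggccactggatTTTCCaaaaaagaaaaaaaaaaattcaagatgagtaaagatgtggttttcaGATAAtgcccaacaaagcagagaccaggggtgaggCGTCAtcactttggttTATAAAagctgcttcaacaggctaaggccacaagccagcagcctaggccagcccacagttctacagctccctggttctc
Csf2 promoter: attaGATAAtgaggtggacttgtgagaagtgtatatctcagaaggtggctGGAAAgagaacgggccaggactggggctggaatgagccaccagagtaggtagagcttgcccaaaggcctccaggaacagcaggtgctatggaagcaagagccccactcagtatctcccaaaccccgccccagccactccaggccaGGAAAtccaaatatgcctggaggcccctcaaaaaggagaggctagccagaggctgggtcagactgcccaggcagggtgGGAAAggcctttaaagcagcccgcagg
The capitals mark letters searched on both strands, namely GGAAA (the core bound by NFAT), GATAA (GATA factors), TGANTCA (AP-1) and TGACG (the core of the cyclic AMP response element), and TATAAA on the sense strand. The Il4 window shown held 5 copies of GGAAA, 1 of GATAA and 2 of TGACG. RefSeq also gives Il4 a start at chr11:53617338. That window, not shown, held 1 copy of GGAAA and none of the other motifs. The Il13 window held 4 copies of GGAAA, 1 of GATAA, 1 of TGACG and 1 TATAAA, and the Csf2 window held 3 copies of GGAAA and 1 of GATAA. Of 32851 mouse promoter windows of the same length, 61.3% held GGAAA, 25.4% GATAA, 7.81% TGANTCA, 20.8% TGACG and 8.32% TATAAA. The table held entries for 8 of the 10 genes, all but Il10 and Osm. These matches are letters in a window, and binding was not measured.

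The mast cell identity of the libraries was checked first. Of 16 mast cell markers, 14 were abundant enough to be tested. The summed level of the markers was 10360 to 12830 CPM (counts relative to library size, scaled by TMM factors) in the controls and 8253 to 10790 with rPTH. By library total alone, the sum was 10390 to 10790 CPM in the controls and 8503 to 11300 with rPTH. Tph1, the first enzyme of serotonin synthesis, Cpa3, the mast cell carboxypeptidase, and Fcer1a, the IgE receptor alpha chain, led at control means of 3507, 2125 and 1603 CPM. Mrgprb2, a receptor of connective tissue mast cells, was at 0 in every library, and the protease Mcpt4 had 0 to 4 counts. Markers of other cytokine producers were low: 9 T cell markers summed to 0.728 to 1.16 CPM, with Lck, Cd4 and Cd28 highest, and 9 macrophage markers summed to 5.57 to 7.79 CPM, mostly Cd68, Lyz2 and Mrc1. The 7 basophil and eosinophil markers summed to 102 to 122 CPM, nearly all of it Cd200r3, which mast cells also express, followed by Mcpt8 and Prg2. Stromal transcripts were present in all libraries and are given below. In bulk RNA, fewer cells of a type and less RNA per cell cannot be told apart. Library totals were 22282095 to 24993606 counts in the controls and 30623648 to 33577977 with rPTH, so every rPTH library was deeper.

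No cytokine of the 10 differed between rPTH and control past an adjusted p of 0.05. Osm, Lif, Tnf, Il6, Il4 and Il13 were readily measured in all 6 libraries, and their groups overlapped. Csf2, Il10 and Il5 had at most 8 counts in a library, and Il9 had none. Set per kb of exon, which allows genes to be compared, the mean level over the 6 libraries was 29.6 CPM per kb for Osm, 13.3 for Tnf, 10.1 for Lif, 7.47 for Il4, 6.54 for Il6 and 5.99 for Il13. It was 0.183 CPM per kb for Csf2, 0.0764 for Il10, 0.0499 for Il5 and 0 for Il9. Osm stood apart, at 22.7 to 33.6 CPM per kb against 10.5 to 16.4 for Tnf. Tnf and Lif (7.33 to 12.3) overlapped, as did Lif and Il4 (4.29 to 13.3), Il4 and Il6 (5.87 to 7.80), and Il6 and Il13 (3.998 to 7.77), so the ranges of these neighbours over the libraries were not separate. Within a library, Tnf was above Lif in 6 of 6 libraries, Lif above Il4 in 5, Il4 above Il6 in 3 and Il6 above Il13 in 3. Between Il13 and Csf2 (0.054 to 0.317) there was a wide gap.

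**Figure D1:**
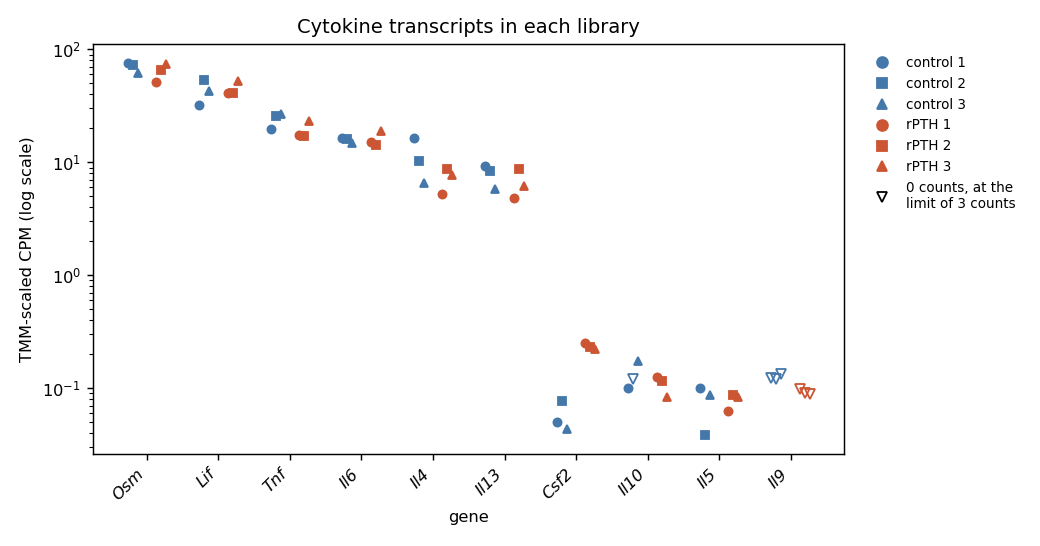
Level of each cytokine in each library, in CPM scaled by TMM factors (log axis), with controls in blue, rPTH in red and the replicate number as the marker shape. Open triangles are libraries with 0 counts, drawn at the level that 3 counts would give. Osm sits highest at 51.7 to 76.4 CPM, and the 4 genes on the right lie near the limit of detection, among which the Csf2 groups do not overlap.

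Il4, which drives IgE class switching and type 2 responses, was measured at 16.3, 10.3 and 6.61 CPM in controls 1, 2 and 3, and at 5.26, 8.72 and 7.73 CPM in rPTH 1, 2 and 3. Control 1 was the highest library and rPTH 1 the lowest, and the lowest control lay among the rPTH libraries. The means were 11.1 ± 4.91 CPM (SD, n = 3) in controls and 7.24 ± 1.78 CPM with rPTH, a log2 fold change of -0.61 ± 0.37 (SE), with an adjusted p of 0.628 in edgeR's quasi-likelihood test. Without control 1 the Il4 difference was -0.23. Il13, which shares receptor chains with Il4 and drives mucus production and fibrosis, was at 9.36, 8.39 and 5.83 CPM in the controls and at 4.82, 8.66 and 6.22 CPM with rPTH. Again control 1 was highest and rPTH 1 lowest on the TMM scale, and the groups overlapped across most of their range. By library total control 1 was not the highest for Il13. It had 185 counts of 24387242, against 217 of 24993606 in control 2. The log2 fold change of Il13 was -0.26 ± 0.30, with an adjusted p of 0.733, and ran from -0.51 without rPTH 2 to -0.08 without rPTH 1.

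Il4 and Il13 moved together over the libraries, with a Pearson r of 0.901 between their log2 levels over all 6, given as a description. This was not particular to the pair, since Osm, outside their cluster, had an r of 0.812 with Il4 and 0.752 with Il13. The ratio of Il4 to Il13 raw counts was 1.75 in control 1, and elsewhere it ran from 1.01 to 1.24. Il4 exceeded Il13 by the widest margin in control 1, the library in which both were highest on the TMM scale. By the same measure, the 2 protein-coding genes most like Il4 were Ung (r = 0.994) and 1810062G17Rik (0.993), out of 12314 compared, and those most like Il13 were Ormdl2 (0.978) and Gnpda1 (0.977).

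Il5, the eosinophil growth factor, had 2, 1 and 2 counts in the controls and 2, 3 and 3 with rPTH. Over each group that was 5 and 8 counts, a ratio of levels of 1.18 with an exact 95% interval of 0.34 to 4.59, which covers counting error only. Il9, a mast cell growth factor, had 0 counts in all libraries, which allows up to 0.0419 CPM over the controls and 0.0309 CPM over the rPTH libraries (3 counts per group). Il10, which restrains inflammation, had 2, 0 and 4 counts in the controls and 4, 4 and 3 with rPTH, a ratio of 1.35 with an exact interval of 0.458 to 4.45. At these counts differences of several-fold in Il5 or Il10 were not detectable.

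Tnf, which mast cells can release from granules as well as synthesise, was at 19.6, 25.9 and 26.9 CPM in the controls and at 17.6, 17.1 and 23.2 CPM with rPTH. Controls 2 and 3 were the highest libraries, and rPTH 3 exceeded control 1, so the groups overlapped. Mean Tnf was 24.1 ± 3.92 CPM without and 19.3 ± 3.38 CPM with rPTH (SD, n = 3), so the log2 fold change was -0.32 ± 0.21 with an edgeR adjusted p of 0.629. Leaving out a library gave -0.47 (without rPTH 3) to -0.16 (without control 3). Il6, the acute-phase cytokine and founder of its family, was at 16.3, 16.0 and 14.7 CPM in the controls and at 15.0, 14.3 and 18.9 CPM with rPTH. Only rPTH 3 lay above all controls, and the log2 fold change of Il6 was 0.04 ± 0.18, with an adjusted p of 0.934. The raw ratio of Il6 to Tnf counts was 0.832, 0.617 and 0.547 in the controls and 0.853, 0.831 and 0.815 with rPTH. Controls 2 and 3 were the lowest in that ratio, and control 1 lay among the rPTH libraries.

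Lif, a cytokine that acts on osteoblasts and progenitor cells through Lifr and gp130, was at 31.9, 53.6 and 43.2 CPM in the controls and at 40.7, 41.0 and 52.4 CPM with rPTH. Control 1 was the lowest library and control 2 the highest, so the rPTH libraries lay within the range of the controls. The log2 fold change of Lif was 0.06 ± 0.23, with an edgeR adjusted p of 0.918. Osm, a relative of Lif that signals through Osmr with gp130, was at 76.4, 72.8 and 62.2 CPM in the controls and at 51.7, 65.6 and 74.5 CPM with rPTH. The lowest library was rPTH 1, and the other 5 lay within 62.2 to 76.4 CPM. Mean Osm was 70.5 ± 7.37 CPM without and 63.9 ± 11.5 CPM with rPTH (SD, n = 3), so the log2 fold change was -0.14 ± 0.19 with an adjusted p of 0.758. Although the genes are neighbours, control 1 had the lowest raw ratio of Lif to Osm counts, 0.417, and the remaining libraries had 0.625 to 0.788.

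The genes whose levels were most like those of the other 4 cytokines across the 6 libraries were Gng7 (r = 0.989) and Faah (0.982) for Tnf, Olfr1393 (0.933) and Ankrd13d (0.891) for Il6, Gramd4 (0.989) and Tmem151b (0.976) for Lif, and Rtn4ip1 (0.980) and Nsun4 (0.974) for Osm. With 6 libraries and 12314 genes compared, such values are a description of these libraries. Il6 had the weakest best match of the 6 cytokines.

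Csf2, the granulocyte-macrophage growth factor, was the one of the 10 whose groups did not overlap, at a level near the limit of counting. It had 1, 2 and 1 counts in the controls and 8, 8 and 8 with rPTH, or 0.0506, 0.0773 and 0.0432 CPM against 0.254, 0.232 and 0.224 CPM. All 3 rPTH libraries were above all controls. Over each group that was 4 counts of 71662943 and 24 counts of 97155333, where 5.42 counts would have matched the control level at the rPTH depth. The ratio of levels was 4.43, with an exact 95% interval of 1.52 to 17.5 that covers counting error only. Leaving out each library gave a ratio of 3.89 to 5.76.

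Csf2 had too few counts for the test of all genes. When no gene was left out for low counts, edgeR gave it a log2 fold change of 2.06 ± 0.82 with an unadjusted p of 0.0216 and an adjusted p of 0.722, and 1.99% of the 38206 genes tested had an unadjusted p under 0.05 in the same direction. DESeq2 gave 2.10 with a standard error of 1.08, an unadjusted p of 0.0524 and no adjusted p. The authors' deposited table gave Csf2 a log2 fold change of 0.80 with a standard error of 0.40, an unadjusted p of 0.0472 and no adjusted p. Their fold change and its standard error were both smaller at a similar p, so the sizes of the 2 fold changes are not compared. Among 2331 genes with 20 to 40 counts in all, a range chosen after the Csf2 counts were seen, 3.39% were higher in every rPTH library than in every control. Of those 2331, 12 genes, Csf2 included, reached its ratio, and 10 of the 12 also had groups apart. The difference in Csf2 therefore did not pass the test, and the antisense gene Gm12223 may share its reads.

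The 6 cytokines tested can be read against all genes. Of 16696 genes tested, 0% had an adjusted p under 0.05 in edgeR, and 1314 had an unadjusted p under 0.05: 1.98% of the tested genes higher with rPTH and 5.89% lower. Among the cytokines, 0 of 6 had an unadjusted p under 0.05 in either direction, though Tnf did without control 1 (0.0233) and Il4 without control 3 (0.0374) in edgeR, with adjusted p of 0.3997 and 0.4685. Groups did not overlap for 8.35% of the tested genes in the higher direction and 8.45% in the lower, and for 0 of the 6 cytokines. Il6 and Lif were above 0 in log2 fold change and the other 4 below, and the median of the 6 was -0.20 against -0.09 over all tested genes. Scaling by library totals alone moved the median of all genes to 0.04. The split at an unadjusted p under 0.05 was 331 higher and 983 lower as tested, 519 and 673 by library totals, 442 and 870 with relative log expression factors, and 416 and 205 among protein-coding genes alone. In the authors' deposited table the adjusted p of these 6 ran from 0.669 for Il4 to 0.926 for Osm. DESeq2 called 8 genes among all genes, none of them a cytokine or receptor named here, and limma-voom called 0, with 789 genes at an unadjusted p under 0.05.

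**Figure D2:**
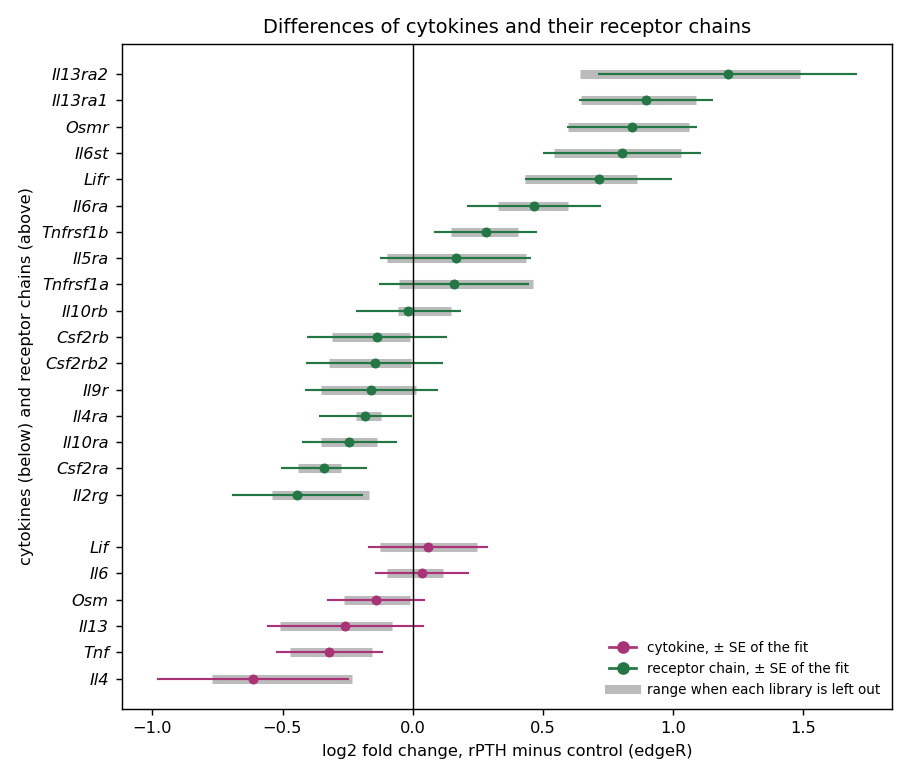
Log2 fold change, rPTH minus control, of the 6 tested cytokines and 17 receptor chains in edgeR, with bars of ± 1 SE and a grey band for the range when each library is left out in turn. The Il6 and Lif bands span 0, and the bands of Il13ra2, Il13ra1, Osmr, Il6st, Lifr, Il6ra and Tnfrsf1b lie wholly above it.

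Control 1 differed from the other controls in a way that tracked transcript length. Among 12315 tested protein-coding genes, genes under 1 kb of exon had a median log2 ratio of control 1 to controls 2 and 3 of 1.18, and genes of 10 kb or more had -0.82. Il4 (1.23 kb) had 0.94, near the median of 0.88 for genes of 1 to 2 kb, while Il13 (1.21 kb) at 0.39 and Tnf (1.64 kb) at -0.42 lay below it. Osm (2.27 kb) at 0.18 and Il6 (2.43 kb) at 0.09 lay below the median of 0.57 for 2 to 3 kb, and Lif (4.35 kb) at -0.60 below that of -0.01 for 4 to 6 kb. The other cytokines than Il4 were thus lower in control 1 than the median gene of their length. The median difference between rPTH and control also varied with length, at of -0.39 for genes of 1 to 2 kb, -0.21 for 2 to 3 kb and 0.02 for 4 to 6 kb. Without control 1 those medians were -0.02, 0.00 and 0.01. Without it the cytokines stood at -0.23 for Il4, -0.13 for Il13, -0.46 for Tnf, -0.09 for Osm, 0.06 for Il6 and -0.12 for Lif, so Lif turned below 0. Length classes were chosen after the values were seen, and the part of this length pattern in the cytokine values was not tested.

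**Figure D3:**
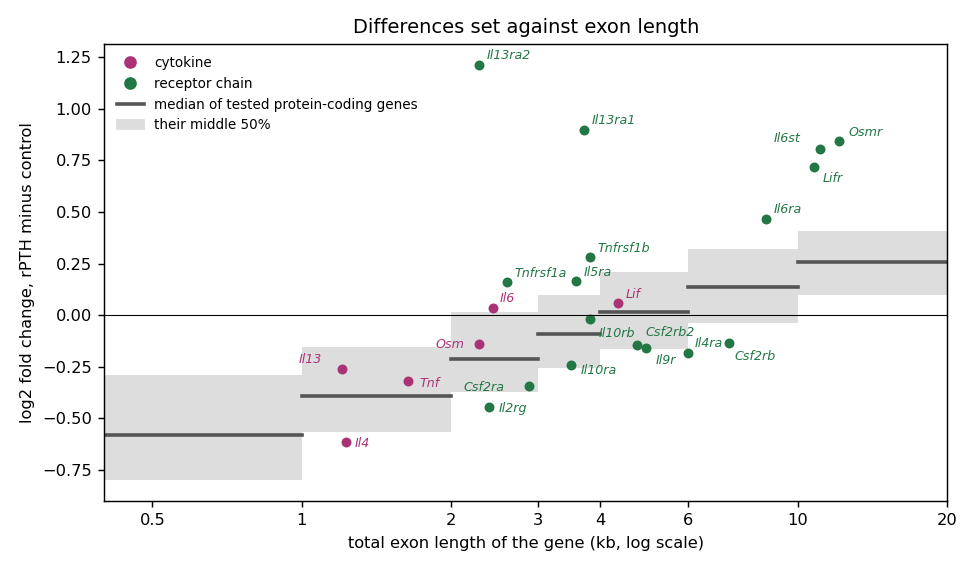
Log2 fold change, rPTH minus control, of each tested cytokine and receptor chain against its total exon length (kb, log axis), over the median and middle 50% of all tested protein-coding genes in each length class. The 6 cytokines lie in or next to the grey boxes for their length, while Il13ra1, Il13ra2, Il6ra, Il6st, Lifr, Osmr, Tnfrsf1a, Tnfrsf1b and Il5ra lie above theirs and Il2rg, Il4ra and Csf2rb below.

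All 17 receptor chains of these cytokines were tested, 0 passed an adjusted p of 0.05 in edgeR, and their adjusted p ran from 0.619 to 0.974. At an unadjusted p under 0.05, 5 were higher with rPTH and 0 lower, against 1.98% and 5.89% of all tested genes. The 5 became 2, Osmr and Il13ra1, without rPTH 1 and again with a replicate block. Without control 1, 5 were higher and 2, Csf2ra and Csf2rb2, lower, against 778 and 1387 of 17454 genes tested. Among those 5, Tnfrsf1a and Tnfrsf1b then stood in place of Lifr and Il13ra2. Groups did not overlap for 6 in the higher direction and 1 in the lower, against 8.35% and 8.45% of all tested genes. The median log2 fold change was 0.16, and 9 of the 17 were above 0. Per kb of exon, the beta chains Csf2rb2 and Csf2rb had means of 578 and 521 CPM per kb, followed by Il5ra at 89.0, Il4ra at 70.8, Il2rg at 66.2 and Csf2ra at 59.2. These chains serve, among others, Csf2 and Il5, whose own transcripts were at most 8 counts in a library.

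Csf2rb, the beta chain shared by the receptors for Csf2, Il5 and Il3, was at 3025, 4630 and 4260 CPM in the controls and 3176, 3810 and 3846 CPM with rPTH. Control 1 was the lowest and the rPTH libraries lay within the range of the controls. Csf2rb2 is a near-identical copy that serves Il3, with a log2 fold change of -0.15 against -0.14 for Csf2rb, and reads may have been split between both, so their separate values are uncertain. Csf2ra, the alpha chain for Csf2, was at 185, 208 and 177 CPM in the controls and 141, 139 and 170 CPM with rPTH. Every rPTH library was below every control on the TMM scale, while the groups overlapped in CPM by library total, and the log2 fold change was -0.34 ± 0.17 with an edgeR adjusted p of 0.625. Il5ra, the alpha chain for Il5, was at 184, 337 and 380 CPM in the controls and 295, 343 and 371 CPM with rPTH, with control 1 lowest and a log2 fold change of 0.17 ± 0.29.

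Il4ra, the alpha chain of the Il4 and Il13 receptors, was at 465, 484 and 406 CPM in the controls and at 364, 417 and 414 CPM with rPTH, a log2 fold change of -0.18 ± 0.18. The groups overlapped. Il2rg, the common gamma chain that pairs with Il4ra and Il9r, was at 247, 159 and 140 CPM in the controls and 113, 144 and 145 CPM with rPTH, highest in control 1, and its log2 fold change was -0.44 ± 0.25. Il9r, the chain specific for Il9, had a log2 fold change of -0.16 ± 0.26 and overlapping groups at 26.6 to 43.6 CPM.

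Il13ra1, which joins Il4ra to form the receptor for Il13, was at 7.89, 7.15 and 8.38 CPM in the controls and 19.2, 14.0 and 10.5 CPM with rPTH. Every rPTH library was above every control, and rPTH 1 was the highest. The log2 fold change was 0.90 ± 0.26, with an unadjusted p of 0.0107 and an edgeR adjusted p of 0.619. Il13ra2, a decoy receptor for Il13, was at 0.354, 0.387 and 0.432 CPM in the controls and 1.52, 0.695 and 0.532 CPM with rPTH. Here too rPTH 1 was highest and the groups did not overlap, and the log2 fold change was 1.21 ± 0.50 (adjusted p 0.619). Without rPTH 1 it was 0.64.

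Osmr, the signalling chain for Osm, was at 29.1, 37.7 and 43.8 CPM in the controls and 87.0, 55.8 and 55.6 CPM with rPTH. Il6st, the gp130 chain shared by Il6, Lif and Osm, was at 29.2, 54.5 and 57.1 CPM in the controls and 105, 70.1 and 71.0 CPM with rPTH. Lifr, the chain for Lif, was at 5.31, 7.54 and 6.70 CPM in the controls and 14.6, 8.46 and 9.16 CPM with rPTH. In all 3 genes control 1 was the lowest library, rPTH 1 the highest, and the groups did not overlap. The log2 fold changes were 0.84 ± 0.25 for Osmr, 0.81 ± 0.30 for Il6st and 0.72 ± 0.28 for Lifr, each with an edgeR adjusted p of 0.619. Leaving out each library gave 0.60 to 1.06 for Osmr, 0.54 to 1.03 for Il6st and 0.43 to 0.86 for Lifr.

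These 3 chains are encoded by long transcripts, and the 1224 protein-coding genes of 10 kb or more had a median log2 fold change of 0.26, or 0.01 without control 1. Without control 1, Osmr stood at 0.69, Il6st at 0.54 and Lifr at 0.58. Il6ra, the specific chain for Il6, was at 2.63, 2.75 and 2.68 CPM in the controls and 4.41, 3.01 and 3.73 CPM with rPTH. Its groups did not overlap, and the log2 fold change was 0.47 ± 0.26 with an edgeR adjusted p of 0.628. The ligands Il6, Lif and Osm had groups that overlapped in the same libraries.

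**Figure D4:**
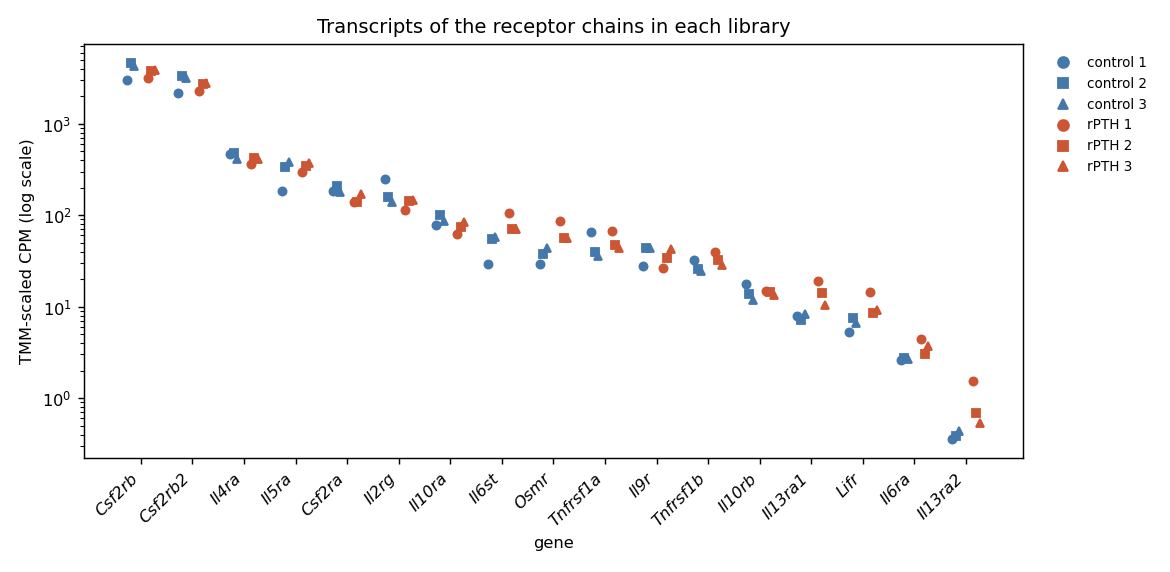
Level of each of the 17 receptor chains in each library, in TMM-scaled CPM (log axis), with controls in blue, rPTH in red and the replicate number as the marker shape. The red points of Il6st, Osmr, Il13ra1, Lifr, Il6ra and Il13ra2 all sit above the blue ones, with rPTH 1 highest in each.

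The receptors for Tnf and Il10 had overlapping groups on the TMM scale, while in CPM by library total every rPTH library was above every control for Tnfrsf1b and Il10rb. Tnfrsf1a, the receptor with a death domain, was at 65.8, 39.9 and 35.8 CPM in the controls and 67.0, 47.2 and 43.6 CPM with rPTH, a log2 fold change of 0.16 ± 0.29. In both groups replicate 1 was the highest library. Tnfrsf1b, the receptor without one, was at 24.5 to 39.4 CPM over all libraries, with a log2 fold change of 0.28 ± 0.20. Il10ra and Il10rb, the chains for Il10, had -0.24 ± 0.18 and -0.02 ± 0.20, and the sign of Il10rb changed under other scalings.

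The higher levels of Osmr, Il6st, Lifr, Il13ra1 and Il13ra2 stood beside higher levels of stromal transcripts. The summed level of 22 stromal and osteoblast markers was 2057, 1918 and 1885 CPM in the controls and 3868, 2456 and 2591 CPM with rPTH. The groups did not overlap and rPTH 1 was highest, the same library in which these 5 chains were highest. Bglap, Ibsp, Dcn and Lum were too low to be tested, at 0 to 5 counts in a library. Their mean CPM with rPTH was lower for Bglap and Lum and higher for Ibsp and Dcn. The median log2 fold change of the 18 markers tested was 0.61, and 18 of 18 were above 0. In edgeR, 10 of the 18 had an unadjusted p under 0.05 in that direction, against 1.98% of all tested genes. Without rPTH 1 the median was 0.37 and the 10 became 2, without control 2 they became 5, and with a replicate block 6. In edgeR 0 passed the adjusted p, and DESeq2 called 1, Thbs2, with a log2 fold change of 0.955 and an adjusted p of 0.04998. Fn1, the matrix protein fibronectin, was at a control mean of 426 ± 158 CPM (SD, n = 3) and 758 ± 232 CPM with rPTH, and Thbs2, a matricellular protein, at 185 ± 4.58 and 340 ± 71.9 CPM. Spp1, or osteopontin, was at 537 ± 194 and 664 ± 164 CPM. The part of these transcripts in the receptor values was not tested.

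**Figure D5:**
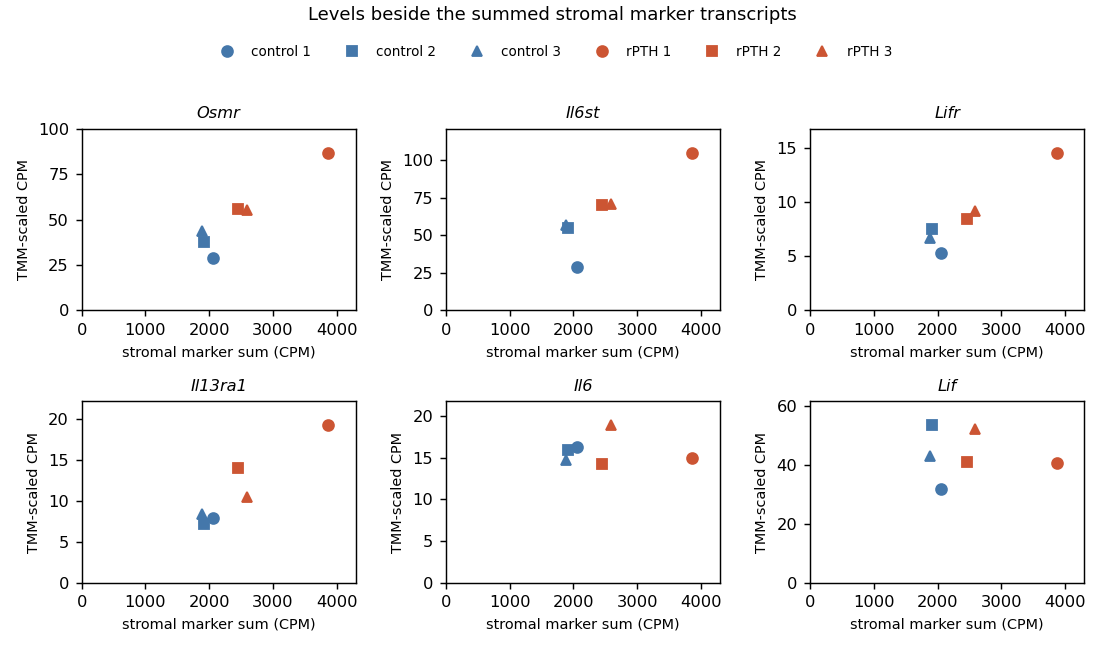
TMM-scaled CPM of Osmr, Il6st, Lifr, Il13ra1, Il6 and Lif against the summed CPM of 22 stromal markers in each library, controls in blue and rPTH in red. In the receptor panels rPTH 1, at a marker sum of 3868 CPM, is the highest point, while in the Il6 and Lif panels it lies within the range of the controls.

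The 6 cytokines measured well were not highest in rPTH 1, the library with the most stromal transcripts. Of these, Il4, Il13 and Osm were lowest in rPTH 1, and Tnf, Il6 and Lif lay between the extremes there. The 10 cytokines, mostly Osm and Lif, summed to 170, 187 and 160 TMM-scaled CPM in the controls and 136, 156 and 183 with rPTH. By library total these sums were 138, 194 and 166 CPM in the controls and 140, 163 and 195 CPM with rPTH. Control 1 was then the lowest library and rPTH 3 the highest. On the TMM scale, the mast cell markers, like the cytokines, summed lowest in rPTH 1, at 8253 CPM. Their sum was highest in control 1, at 12830 CPM. By library total that sum was again lowest in rPTH 1, at 8503 CPM. It was then highest in rPTH 2, at 11300 CPM, and control 1 was the lowest control, at 10390 CPM. Of the 14 mast cell markers tested, 0 were called, 5 were above 0 and 9 below. Their median log2 fold change was -0.23, against -0.09 over all tested genes. In edgeR 1 was lower and 0 higher at an unadjusted p under 0.05, against 5.89% and 1.98% of all tested genes. Groups did not overlap for 3 in the lower direction and 1 in the higher, against 8.45% and 8.35%. Csf2 was higher in the 3 rPTH libraries, where the stromal markers were higher too, with 8 counts in each. The part of the cell mixture in the cytokine values was not tested.

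Genes that act downstream of the receptors gave no called change. All 17 genes of the JAK-STAT list were tested, with 0 called, 8 above 0 and a median log2 fold change of -0.01. The kinase Jak1, shared by most of these receptors, was at 236 ± 58.2 CPM without and 277 ± 4.66 CPM with rPTH (SD, n = 3). Stat3, the main transducer of gp130, was at 155 ± 22.6 and 175 ± 6.55 CPM, and Stat6, the transducer of Il4 and Il13, at 121 ± 16.0 and 121 ± 6.43 CPM. Socs3, a feedback inhibitor that gp130 signalling induces, was at 32.4 ± 3.88 and 31.8 ± 7.56 CPM. Groups did not overlap for 4 of the 17, Jak1, Jak2, Socs5 and Bcl6, all in the higher direction, against 8.35% of all tested genes.

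Of 23 transcription factors that act at these cytokine genes, 21 were tested, with 0 called, 9 above 0 and a median of -0.14. Gata2, a mast cell factor that acts at the Il4 and Il13 locus, was at 1105 ± 65.3 CPM in the controls and 932 ± 97.2 CPM with rPTH, a log2 fold change of -0.25. Every rPTH library of Gata2 was lower on the TMM scale, while the groups overlapped in CPM by library total. Runx1 was at 577 ± 158 and 560 ± 44.6 CPM. Nfatc3, one of the calcium-dependent NFAT factors, was at 135 ± 55.5 and 178 ± 8.36 CPM, with every rPTH library higher. Of the 21 tested, groups did not overlap for 1 in the higher direction and 1 in the lower, against 8.35% and 8.45% of all tested genes. Gata3, the T helper factor for the same cluster, was too low to be tested.

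The factors that bind unstable transcripts at AU-rich elements or, as Zc3h12a, Rc3h1 and Rc3h2 do, at stem-loops were all expressed. All 11 were tested, 0 were called, 6 were above 0 and the median log2 fold change was 0.04. Hnrnpd, also called AUF1, was at 231 ± 37.6 and 231 ± 11.5 CPM, Khsrp at 200 ± 37.1 and 210 ± 17.9 CPM, and Zfp36l2, of the tristetraprolin family, at 139 ± 16.4 and 133 ± 12.1 CPM (SD, n = 3 each). Zfp36, tristetraprolin itself, was at 26.7 ± 6.27 and 24.2 ± 3.49 CPM, with overlapping groups. The genes that release and transduce Tnf were likewise expressed: 10 of 10 were tested, 0 were called, 4 were above 0 and the median was -0.03. Rhbdf2, which brings the Tnf sheddase to the surface, was at 94.7 ± 16.8 and 83.0 ± 7.45 CPM, and Adam17, the sheddase, at 58.4 ± 9.64 and 64.8 ± 1.66 CPM. Ripk1, a kinase of the Tnf receptor complex, was at 48.3 ± 17.0 and 57.5 ± 3.44 CPM.

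Timp3, an inhibitor of Adam17 that stromal cells also make, was the 1 gene of those 10 whose groups did not overlap. Over all tested genes, groups did not overlap in the higher direction for 8.35%, and 1.98% had an unadjusted p under 0.05 in that direction. Timp3 was at 8.59 ± 2.37 CPM in the controls and 17.9 ± 5.26 CPM with rPTH, a log2 fold change of 1.06 with an unadjusted p of 0.0105 and an edgeR adjusted p of 0.619. It was singled out after its values were seen.

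Of 29 other cytokines and growth factors, 10 were abundant enough to be tested, 0 were called, 6 were above 0 and the median log2 fold change was 0.15. Csf1, the macrophage growth factor, which osteoblasts make in quantity, led at 318 ± 66.7 CPM without and 382 ± 93.2 CPM with rPTH (SD, n = 3). Tgfb1 was at 270 ± 58.6 and 205 ± 11.7 CPM, with every rPTH library below every control, and Clcf1, of the interleukin-6 family, at 12.6 ± 2.65 and 13.6 ± 3.70 CPM. Kitl, the mast cell growth factor made by stromal cells, was the gene of that list with an unadjusted p under 0.05, at 5.33 ± 2.61 and 11.8 ± 3.75 CPM, with an edgeR adjusted p of 0.619. Of all tested genes, 1.98% had such a p in the higher direction. Groups did not overlap for 1 of the 10 in the higher direction and 1 in the lower, against 8.35% and 8.45% of all tested genes. Il33, an alarmin that stromal cells make, was too low to be tested. It had 0, 1 and 1 counts in the controls and 5, 4 and 6 with rPTH. Its groups did not overlap, as for Csf2, but the share among genes with so few counts was not computed.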

How the data were processed

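Total RNA of 6 MC/9 libraries (3 control, 3 rPTH) was sequenced. The submitters' processing notes name, without roles or order, Trimmomatic 0.36, STAR 2.5.2b, Subread 1.5.0p3, featureCounts, DESeq2 1.12.4 and R 3.3.0, and the builds GRCm38.p5 and mm9. Annotation and strand use were not given in the sources used here. Deposited by the authors were raw counts per gene, a signal table that equals these counts divided by 1 size factor per library, a log2 table of regularised values (not used), and a comparison table. Per the file headers, that table holds a p-value (raw and adjusted), a Wald score and a log2 fold change.

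Raw counts were tested with edgeR 4.0.16 (R 4.3.3; TMM factors, filterByExpr with a minimum count of 10, robust quasi-likelihood test, Benjamini-Hochberg adjustment, threshold 0.05), which kept 16696 genes (33.7%). Levels are CPM scaled by TMM factors. CPM per kb uses the union of GENCODE M21 exons. DESeq2 1.42.0 and limma 3.58.1 (voom) were alternatives, with other factors, other filters, protein-coding genes alone, a replicate block and each library left out. Ratios of few counts carry exact 95% intervals, and 3 counts were taken as the limit that 0 allows. The scripts were checked on simulated data, in which 9 of 100 genes changed 2-fold and 77 of 100 changed 4-fold were called. There were 3 false calls. Most 2-fold changes were thus missed, so 0 calls in a list does not show that 2-fold differences were absent.

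The 10 genes, the lists and the tests were chosen with earlier results of these data known. Named genes were all 10 cytokines, all receptor chains, the 3 genes of highest mean CPM in every other list, any gene called, and the 2 genes most like each tested cytokine by Pearson r. Genes outside this rule (Mrgprb2, Mcpt4, Bglap, Ibsp, Dcn, Lum, Socs3, Jak2, Socs5, Bcl6, Gata3, Zfp36, Zc3h12a, Rc3h1, Rc3h2, Timp3, Kitl and Il33) were chosen after values were seen. So were the motifs, the length classes and the range of 20 to 40 counts. The untranslated region of Il4 is not reported here.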

Additional observations from a re-analysis of the deposited data

How the results depend on the processing

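The count of genes called was 0 in edgeR under every scaling, filter and left-out library tried, and in limma-voom, while DESeq2 called 8. For the 6 tested cytokines, 90 alternative values gave 0 calls and 3 changes of sign, all from leaving out a library: Il6 ranged from -0.10 to 0.12 and Lif from -0.12 to 0.25 in log2 fold change. The 17 receptor chains gave 254 values, 0 calls and 13 changes of sign in 4 genes. Leaving out a library gave -0.10 to 0.44 for Il5ra, -0.054 to 0.462 for Tnfrsf1a, -0.352 to 0.015 for Il9r and -0.055 to 0.146 for Il10rb. Il10rb was also 0.05 with relative log expression factors, 0.004 with upper-quartile factors, 0.13 by library totals, 0.12 with no filter, 0.006 among protein-coding genes alone, 0.069 in DESeq2 and 0.009 in limma-voom. The median over the cytokines was 0.16 with no filter and 0.12 in DESeq2, where Il5, Il10 and Csf2 also enter. The median over the receptor chains was 0.25 by library totals and 0.26 with no filter, and -0.005 to 0.15 with a library left out, the lowest without rPTH 1. The cause of these changes was not tested.

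With the replicate number as a replicate block, edgeR called 0 genes, with 525 at an unadjusted p under 0.05. The cytokines stood at -0.54 for Il4, 0.03 for Il6, -0.27 for Il13, -0.32 for Tnf, 0.08 for Lif and -0.15 for Osm, and Il10rb at 0.002. Same-numbered libraries had correlations of their deviations of -0.13, -0.32 and 0.14, and only control 3 correlated best with its own number. With 3 libraries per group, such values cannot tell whether same-numbered libraries shared a batch or culture. At these library totals Il5, Il9, Il10 and Csf2 lay at or near the limit of counting.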
